A study of Mus musculus with 24 samples.

Results

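The genes described here code for the nuclear-encoded subunits of oxidative phosphorylation, the proteins from which the respiratory chain and the ATP synthase are built. Members were chosen by gene symbol, with earlier results of these data known: symbols that begin with Ndufa, Ndufb, Ndufc, Ndufs or Ndufv (without the assembly factors Ndufaf), Uqcr, Cox4i, Cox5, Cox6, Cox7, Cox8 or Atp5, and Sdha, Sdhb, Sdhc and Sdhd. This gave 85 genes of the 19505 on the array with 1 symbol, each measured by 1 of the 22206 probe sets tested. No member had more than 1 probe set. Complexes were assigned by the start of the symbol, with 38 members in complex I, 4 in complex II, 8 in complex III, 18 in complex IV and 17 in complex V. Ndufa4 and Ndufa4l2 are thereby counted in complex I. The 12 mice were male C57Bl/6j animals aged 8 to 10 weeks, with no transgene or deleted gene named in the labels. In 8 of them the middle cerebral artery was occluded (MCAO) for 90 min by the intraluminal route, a model of ischaemic stroke, and the other 4 had sham surgery. Brains were perfused with cold saline 30 min later, which is 2 h from the start of ischaemia. The ipsilateral (operated) and the contralateral hemisphere of each mouse were hybridised separately to Affymetrix whole-transcript arrays, giving 8, 8, 4 and 4 arrays in the 4 groups. Whole hemispheres were used, so tissue outside the territory of the artery is part of every ipsilateral sample.

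Oxidative phosphorylation takes place in the inner mitochondrial membrane. Complex I (NADH dehydrogenase) and complex II (succinate dehydrogenase) pass electrons to ubiquinone, complex III passes them on to cytochrome c, and complex IV (cytochrome c oxidase) reduces oxygen to water. Complexes I, III and IV pump protons, and complex V (ATP synthase) uses the returning protons to make ATP. Neurons depend on this pathway for most of their ATP, and occlusion of an artery stops it by withholding oxygen and glucose. Most subunits are encoded in the nucleus, while a small set in the catalytic cores is encoded by mitochondrial DNA, which is not analysed here. Several subunits, mainly of complex IV, exist as tissue-specific isoforms encoded by separate genes.

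MCAO mouse 3 and sham mouse 1 gave 4 arrays that stood apart from the other 20, whichever hemisphere was hybridised. The SD of log2 signal over probe sets was 1.44 to 1.54 on these 4 arrays and 2.33 to 2.41 on the rest. The positive control probe sets averaged 4.69 to 5.01 there against 6.51 to 6.74, and the hybridisation spikes 11.04 to 11.25 against 7.72 to 9.85. These 4 are called the low-SD arrays, and the counts and medians of the members are given on all 24 arrays and on the 20 without them. Values of single genes are on the 20 arrays unless 24 are named. Background was taken as the 95th percentile of 5222 negative control probe sets of an array, at 5.17 to 5.74 on the 20 arrays and 7.41 to 7.61 on the low-SD arrays. On the 20 arrays the tissue label was borne out by its markers: 10 of 10 measured neuronal, 8 of 8 astrocyte and 7 of 7 oligodendrocyte markers were above background on every array. Of markers of rarer cell types, 2 of 7 for microglia, 4 of 7 for endothelium and 3 of 7 for pericytes and smooth muscle were so. Of 10 skeletal muscle and 6 choroid plexus markers, 0 were above background on all 20 arrays, though the muscle marker Ckm was so on 17 of them.

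On the 20 arrays 75 of the 85 members were above background on every array, and 75 to 78 members were so on any single array. The mean log2 signal over the 85 members ranged from 8.11 to 8.24 (median 8.15) on the 7 MCAO ipsilateral arrays and from 7.93 to 8.26 (median 8.09) on the 7 MCAO contralateral arrays. Sham mice 2, 3 and 4 stood at 7.78, 8.16 and 8.25 ipsilaterally and at 7.90, 8.13 and 8.21 contralaterally. The groups overlapped, and the lowest values of both sides belonged to sham mouse 2. Its ipsilateral array also had the lowest mean of positive controls (6.51) and the lowest median correlation to the others (0.981) among the 20, and the part of these in its low member signal was not tested. Complex V averaged 9.19 ± 0.05 (SD, n = 7) in the ipsilateral and 9.10 ± 0.12 (SD, n = 7) in the contralateral hemisphere of MCAO mice. Complex I was at 8.04 ± 0.06 and 7.96 ± 0.10, and complex III at 8.24 ± 0.06 and 8.14 ± 0.13. Complex II was at 7.68 ± 0.13 and 7.67 ± 0.13 and complex IV at 7.57 ± 0.07 and 7.53 ± 0.07. The complex IV mean is lowered by 6 isoforms above background on 0 of the 20 arrays.

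**Figure D1:**
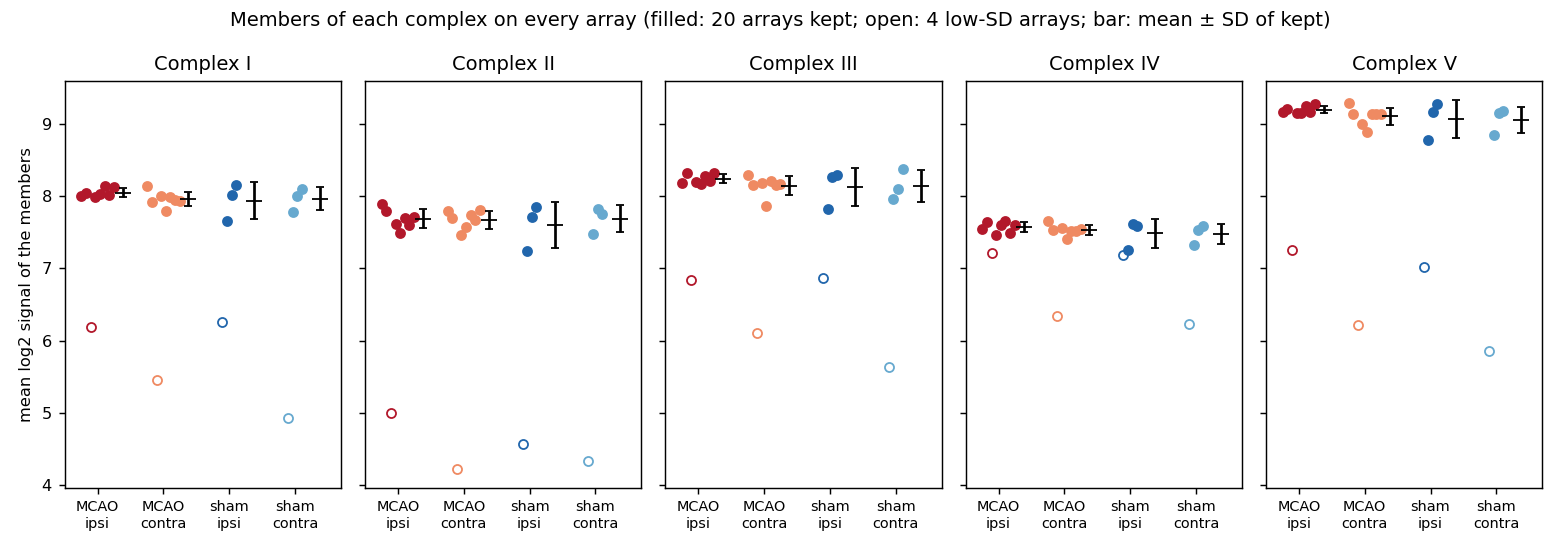
Mean log2 signal of the members of each complex (vertical axis) on every array, by group on the horizontal axis. Filled points are the 20 arrays kept, open points the 4 low-SD arrays, and the black mark is the mean ± SD of the filled points. The 4 groups of filled points overlap in every complex, while the open points of complex I lie at 4.93 to 6.25 against 7.65 to 8.15.

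The first comparison asked whether the transcripts differed between the occluded side and the contralateral side within each mouse. No member passed the threshold of an adjusted p under 0.05 in limma: 0 of 85 were called on 24 arrays, where 0.0856% of all probe sets were called, and 0 of 85 on 20 arrays, where 0.135% were. At an unadjusted p under 0.05 the counts were 0 members on 24 arrays (4.13% of all probe sets) and 4 members on 20 arrays, all higher on the occluded side (7.1% of all probe sets, a larger share than among the members). The members nevertheless leaned one way in their fitted values. On 24 arrays, where the smallest adjusted p of a member was 0.94, 78 of 85 were positive (49.4% of all probe sets) with a median of 0.17, a value that fell to 0.076 without MCAO mouse 3. On 20 arrays 74 of 85 had a positive log2 difference, with a median of 0.076, while 48.4% of all probe sets were positive with a median of -0.0048. Of probe sets at or above the median signal, where most members lie, 57.3% were positive on 24 arrays (median 0.029). On 20 arrays 50.4% of them were (median 0.0011). The member median on 20 arrays ran from 0.048 without MCAO mouse 5 to 0.11 without MCAO mouse 1. The median standard error of a single member was 0.090, larger than the median difference of 0.076 on the 20 arrays. Neither the count nor the median is a test, because the members share the same mice and vary together. A difference in the share of a cell type and a difference in RNA per cell cannot be told apart in such whole-tissue samples.

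The precision of these comparisons can be read from the intervals. On 20 arrays the 95% confidence interval of the side difference lay within ± 0.5 on the log2 scale, a 1.41-fold change, for 83 of 85 members in MCAO mice. The exceptions were Atp5e and Ndufa4l2, with upper bounds of 0.56 and 0.66, the latter for a signal below background on every array. On the 20 arrays such an interval was found for 18786 of all 22206 probe sets, and for 10470 of the 11103 at or above the median signal. On 24 arrays it was found for 38 of 85 members, 13462 of all probe sets and 7280 of those at or above the median signal. A side difference in signal beyond 1.41-fold in MCAO mice was therefore outside the interval of those 83 members. They include 6 complex IV isoforms above background on 0 of the 20 arrays. For these the interval is that of a background signal and does not bound a change of the transcript.

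By complex, the median side difference of MCAO mice on 20 arrays was 0.080 in complex I (33 of 38 members positive), 0.026 in complex II (3 of 4), 0.094 in complex III (8 of 8), 0.045 in complex IV (15 of 18) and 0.093 in complex V (15 of 17). On 24 arrays the medians were 0.14, 0.095, 0.16, 0.15 and 0.22. The 18 members of complex IV include 6 isoforms above background on 0 of the 20 arrays. The estimates on 24 arrays include MCAO mouse 3, whose 2 arrays were both of low SD.

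**Figure D2:**
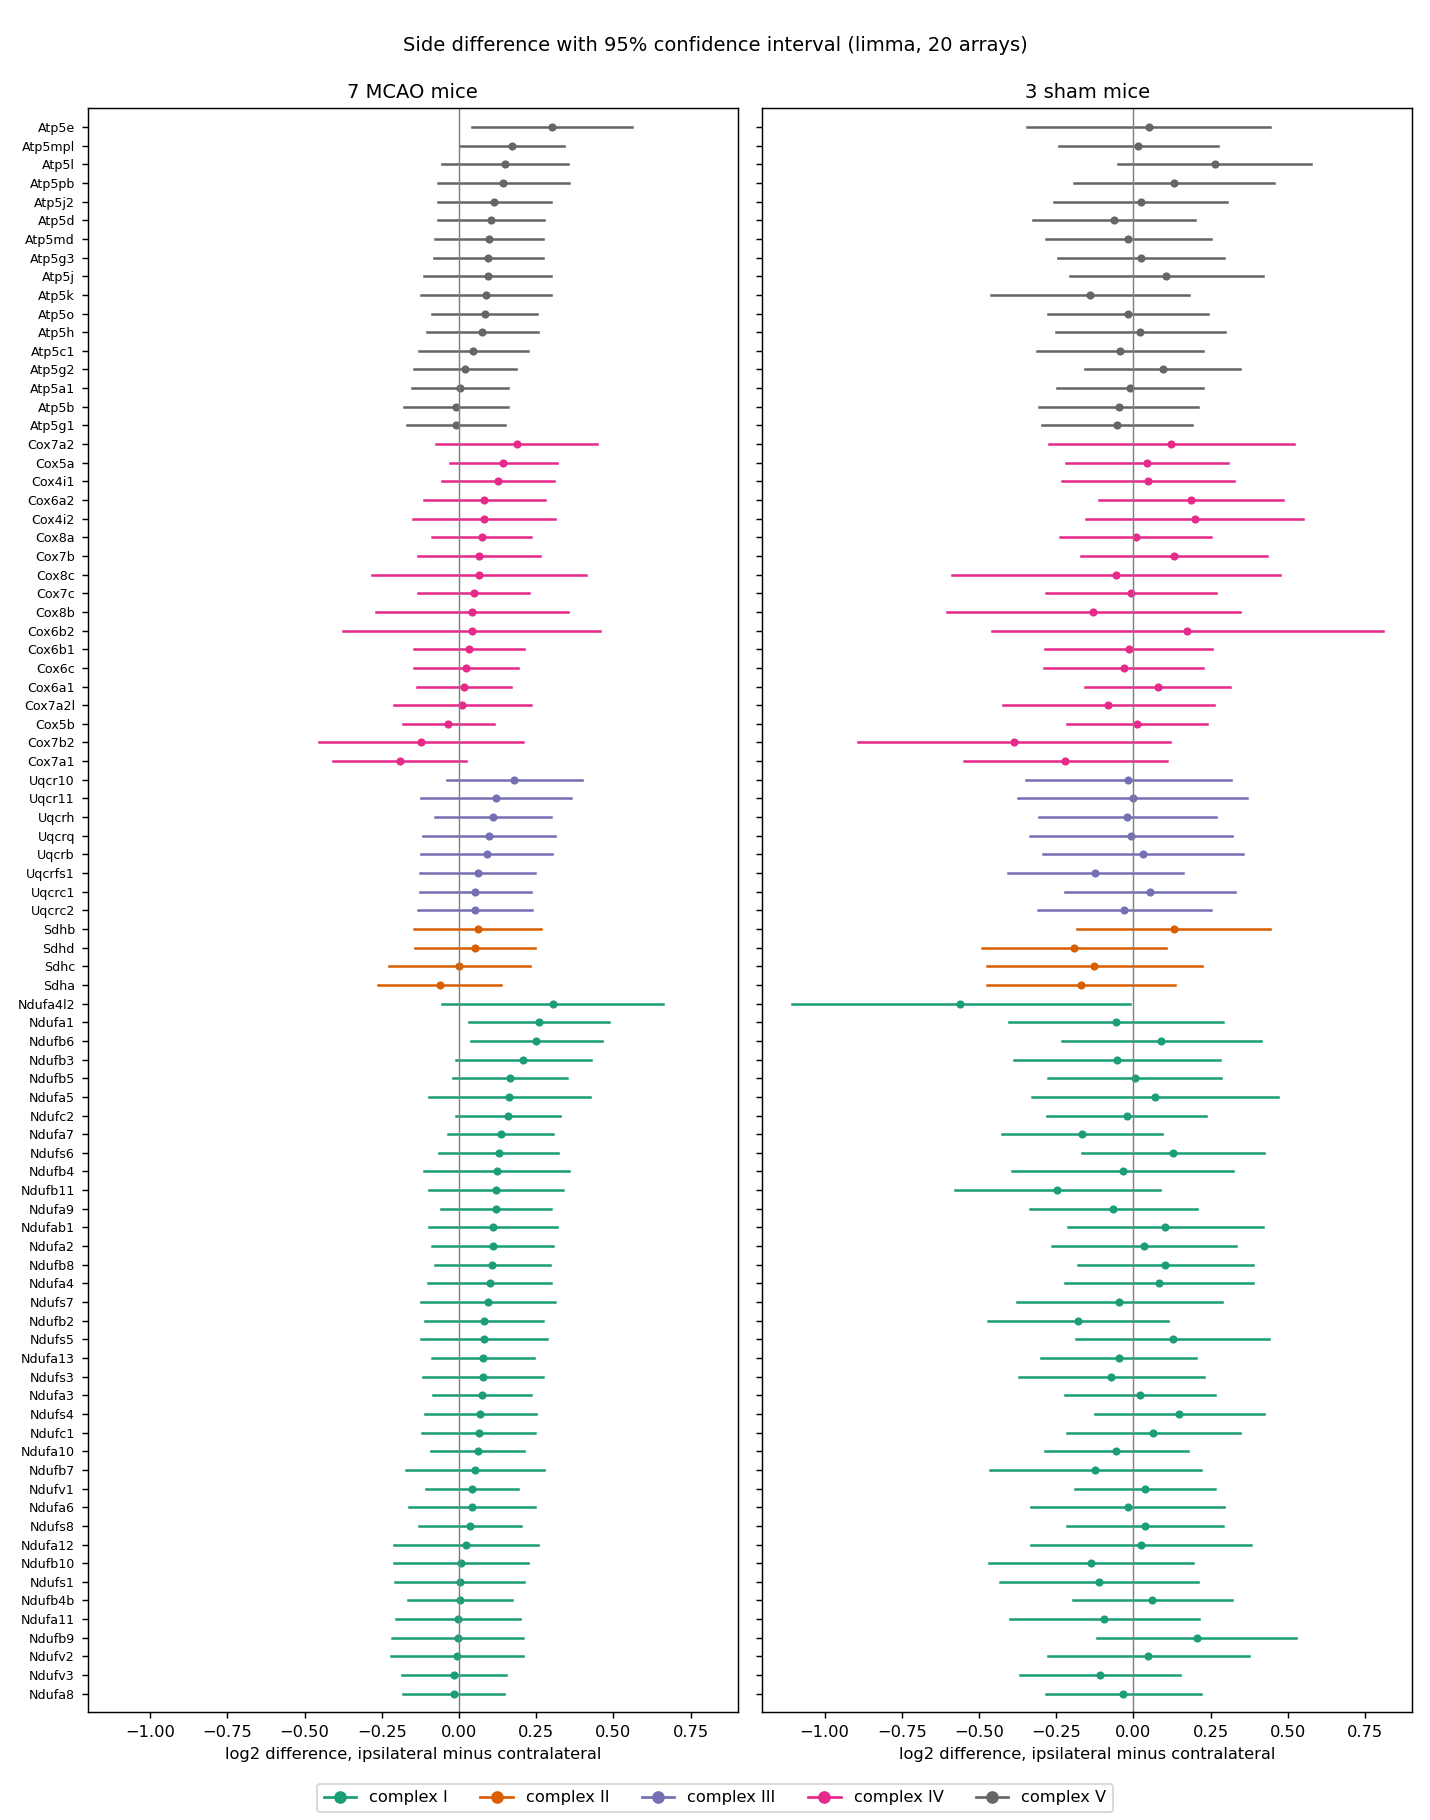
Estimated log2 difference between the ipsilateral and contralateral hemisphere (horizontal axis) for each of the 85 members (rows, coloured by complex), with 95% confidence intervals from limma on 20 arrays, in the 7 MCAO mice (left) and the 3 sham mice (right). In MCAO mice 74 of 85 points lie right of 0 and most intervals cross 0, and in sham mice 40 of 85 points lie right of 0.

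Among the core subunits, Ndufs1 carries iron-sulphur clusters of complex I and Ndufv1 binds NADH. The log2 signal of Ndufs1 was 7.50 to 7.88 (median 7.70) in the occluded and 7.51 to 7.97 (median 7.59) in the opposite hemisphere of the 7 MCAO mice. In sham mice 2, 3 and 4 it was 7.19, 7.67 and 7.78 ipsilaterally and 7.53, 7.60 and 7.85 contralaterally. The groups overlapped, and the side difference was 0.003 ± 0.097 (SE) in MCAO mice with an adjusted p of 0.997 in limma. Ndufv1 ranged from 9.27 to 9.50 (median 9.38) and from 9.20 to 9.44 (median 9.34) on the occluded and the opposite side of MCAO brains, a difference of 0.042 ± 0.068 (SE, adjusted p = 0.954). The sham mice 2, 3 and 4 had 9.25, 9.45 and 9.44 ipsilaterally and 9.29, 9.33 and 9.41 contralaterally. Ndufv1 had the smallest SD over the 20 arrays of all 85 members, at 0.079.

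Sdha, the flavoprotein of complex II that oxidises succinate, was 7.02 to 7.68 (median 7.33) in the occluded and 7.20 to 7.65 (median 7.41) in the opposite hemisphere. In sham mice 2, 3 and 4 it was 7.19, 7.23 and 7.51 ipsilaterally and 7.35, 7.72 and 7.37 contralaterally. Its side difference was -0.062 ± 0.092 (SE, adjusted p = 0.947) in MCAO mice, the lowest of complex II, and 3 of 7 mice were higher on the occluded side. Sdhb, the iron-sulphur subunit, was 8.99 to 9.33 (median 9.15) and 8.80 to 9.37 (median 9.09), a difference of 0.060 ± 0.095 (SE, adjusted p = 0.952). In complex III, the Rieske iron-sulphur protein Uqcrfs1 was 7.46 to 8.09 (median 7.88) and 7.47 to 8.00 (median 7.77), with a difference of 0.060 ± 0.086 (SE, adjusted p = 0.946). The core protein Uqcrc1 was 8.81 to 9.23 (median 9.01) and 8.52 to 9.16 (median 9.003), a difference of 0.053 ± 0.083 (SE, adjusted p = 0.953). In all these genes the 2 sides overlapped.

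Cox4i1, the common isoform of a regulatory subunit of complex IV, was 9.56 to 9.84 (median 9.62) in the occluded and 9.36 to 9.72 (median 9.61) in the opposite hemisphere of MCAO mice. Its values in sham mice 2, 3 and 4 were 9.04, 9.85 and 9.93 ipsilaterally and 9.14, 9.59 and 9.96 contralaterally. The difference in MCAO mice was 0.13 ± 0.084 (SE, adjusted p = 0.831), with 5 of 7 mice higher on the occluded side. The catalytic head of ATP synthase is formed by the products of Atp5a1 and Atp5b. Atp5a1 was 10.87 to 11.11 (median 10.98) and 10.84 to 11.13 (median 10.99), and Atp5b 10.52 to 10.85 (median 10.70) and 10.49 to 10.86 (median 10.73). Their side differences were 0.004 ± 0.072 (SE, adjusted p = 0.996) and -0.009 ± 0.078 (SE, adjusted p = 0.994), the intervals running from -0.15 to 0.16 and from -0.18 to 0.16.

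The 4 members with an unadjusted p under 0.05 in MCAO mice on 20 arrays were Atp5e, Ndufb6, Ndufa1 and Atp5mpl, or 4.71% of the 85 against 7.1% of all probe sets. Atp5e, the epsilon subunit in the stalk of ATP synthase, was 5.83 to 6.31 (median 5.97) in the occluded and 5.13 to 6.12 (median 5.82) in the opposite hemisphere. It was higher on the occluded side in 7 of 7 mice, by 0.30 ± 0.12 on the log2 scale (SE, adjusted p = 0.623 in limma). MCAO mouse 5 gave 0.95 and the other 6 mice 0.11 to 0.43, and the difference was 0.19 without MCAO mouse 5. Atp5e was above background on 7 of 7 occluded but 5 of 7 opposite hemispheres, that of MCAO mouse 5 being 1 of the 2 below it, so no fold is given. It was above background on 16 of the 20 arrays in all. In sham mice 2, 3 and 4 it was 4.82, 5.65 and 6.46 ipsilaterally and 4.97, 5.87 and 5.94 contralaterally.

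Ndufb6, a membrane-arm subunit of complex I, was 7.56 to 7.81 (median 7.67) in the occluded and 7.15 to 7.67 (median 7.48) in the opposite hemisphere. It was higher in 6 of 7 mice, by 0.25 ± 0.098 (SE, 1.19-fold, adjusted p = 0.609). Its sham values for mice 2, 3 and 4 were 6.83, 7.62 and 7.90 ipsilaterally and 6.93, 7.35 and 7.80 contralaterally, a range that holds all the MCAO values. Ndufa1 and Atp5mpl, named here after their values were seen, code for small subunits of complexes I and V. Ndufa1 was at 0.26 ± 0.11 (SE, adjusted p = 0.639, 6 of 7 mice) and Atp5mpl at 0.17 ± 0.078 (SE, adjusted p = 0.691, 5 of 7 mice).

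In the other complexes the members with the highest test statistic were Uqcr10, a small subunit of complex III, and Cox5a, a matrix-side subunit of complex IV. Uqcr10 was 8.06 to 8.51 (median 8.30) against 7.63 to 8.34 (median 8.20), a difference of 0.18 ± 0.10 (SE, adjusted p = 0.8, 5 of 7 mice). Cox5a was 8.55 to 9.10 (median 8.82) against 8.57 to 8.90 (median 8.66), a difference of 0.14 ± 0.080 (SE, adjusted p = 0.798, 6 of 7 mice). At the other end, Ndufa8 of complex I was at -0.017 ± 0.076 and Uqcrc2, the second core protein of complex III, at 0.051 ± 0.085 (SE). In complex V the lowest was Atp5g1 at -0.011 ± 0.073 (SE). In complex IV it was the muscle isoform Cox7a1, at 2.97 to 3.53 (median 3.29) against 3.23 to 3.75 (median 3.47, adjusted p = 0.779), signals that were below background on every array. None of these differences passed the test.

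In the sham mice, which give the background of the side comparison, 0 of 85 members were called on 24 arrays (0% of all probe sets) and 0 of 85 on 20 arrays (0% of all probe sets). At an unadjusted p under 0.05, 9 members passed on 24 arrays, 10.6% of the 85 against 6.26% of all probe sets, 7 of them higher and 2 lower on the operated side. On 20 arrays 1 member passed, lower, against 5.49% of all probe sets. The median side difference of the members was 0.25 on 24 arrays, with 66 of 85 positive, and -0.0076 on 20 arrays, with 40 of 85 positive. Of all probe sets 49.8% and 48.9% were positive, and of those at or above the median signal 54.3% and 45.0%. The 24-array median of the members rested on sham mouse 1, whose arrays had low SD. Their 20-array median turned to 0.045 without sham mouse 2. The highest statistic on 20 arrays was that of Atp5l, subunit g of ATP synthase. Its signal was 7.83, 8.46 and 8.50 ipsilaterally and 7.68, 8.12 and 8.20 contralaterally in sham mice 2, 3 and 4, a difference of 0.26 ± 0.14 (SE, adjusted p = 0.942, 3 of 3 mice). In MCAO mice the side difference of Atp5l was 0.15 ± 0.095 (SE).

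A term for the interaction of surgery with side tested whether the side difference of MCAO mice differed from that of sham mice. On 24 arrays 0 of 85 members were called (0% of all probe sets) and 1 passed at an unadjusted p under 0.05 (5.12%). On 20 arrays 0 of 85 were called (0%) and again 1 passed unadjusted (5.91%). The median interaction of the members was -0.080 on 24 arrays, with 31 of 85 positive, and 0.080 on 20 arrays, with 65 of 85 positive. Of all probe sets 49.6% and 50.04% were positive, and of those at or above the median signal 48.7% and 54.6%. The member median on 24 arrays turned to 0.19 when sham mouse 1 was left out and went to -0.24 without sham mouse 2. On 20 arrays the median was 0.019 without sham mouse 2. Ndufb9 had the lowest interaction statistic on 20 arrays, at -0.21 ± 0.18 (SE, adjusted p = 0.935). In sham mice 2, 3 and 4 it was 9.41, 9.54 and 9.93 ipsilaterally and 9.36, 9.51 and 9.39 contralaterally, and in MCAO mice 9.11 to 9.69 (median 9.47) and 9.25 to 9.71 (median 9.44). On 20 arrays the interval of the interaction lay within ± 0.5 for 57 of 85 members. The same held for 6369 of all 22206 probe sets and 5482 of the 11103 at or above the median signal.

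The lean of the members differed from mouse to mouse, also in sign. The mean side difference over the 85 members was -0.11 in MCAO mouse 1, 0.12 in mouse 2, 0.015 in mouse 4, 0.22 in mouse 5, 0.12 in mouse 6, 0.031 in mouse 7 and 0.13 in mouse 8. Of the 85 members, 24 were positive in mouse 1, 67 in mouse 2, 73 in mouse 5, 66 in mouse 6 and 65 in mouse 8. Mouse 7 had 50 positive, and mouse 4 had 40, with a median of -0.019 beside its positive mean. The sham mice 2, 3 and 4 were at -0.11, 0.037 and 0.043, with 21, 50 and 50 members positive. The mean was 0.076 ± 0.11 (SD, n = 7) in MCAO mice, 6 of them positive, and -0.010 ± 0.087 (SD, n = 3) in sham mice. The 2 groups overlapped, with MCAO mouse 1 as low as sham mouse 2. The low-SD mice lay far above both groups, with 0.83 in MCAO mouse 3 and 1.15 in sham mouse 1.

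Complex II did not follow the other complexes in every mouse. In MCAO mouse 5 complexes I, III, IV and V were at 0.24, 0.30, 0.19 and 0.26 and complex II at -0.080. In MCAO mouse 1 the 4 complexes were at -0.14, -0.11, -0.11 and -0.11, and complex II at 0.10. In MCAO mouse 8 they were at 0.19, 0.16, 0.057 and 0.14, and complex II at -0.097. Complex II has only 4 members, so its mean rests on fewer probe sets. Cytosolic ribosomal proteins, 69 genes with no role in respiration, had side differences of -0.21, 0.081, -0.074, 0.33, 0.098, 0.0017 and 0.080 in MCAO mice 1, 2, 4, 5, 6, 7 and 8. Their lowest and highest values fell in the same mice as those of the members, and the part of a shared technical factor in either was not tested. Cell type markers also differed between the sides of single mice. In MCAO mouse 1 the mean side difference was 0.051 for neuronal, -0.10 for astrocyte, -0.23 for oligodendrocyte, -0.12 for microglial, -0.19 for endothelial and -0.49 for pericyte and smooth muscle markers. In MCAO mouse 5 it was 0.096, 0.11, 0.19, 0.30, -0.0068 and 0.10 in the same order. Over the 7 mice neuronal markers ran from -0.020 to 0.096, astrocyte markers from -0.10 to 0.14, oligodendrocyte markers from -0.23 to 0.23, microglial markers from -0.12 to 0.30, endothelial markers from -0.19 to 0.21 and pericyte markers from -0.50 to 0.19. In mice 1 and 5 the markers of 4 of these 6 cell types thus had the sign of the members in both mice, and their part in the lean was not tested.

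**Figure D3:**
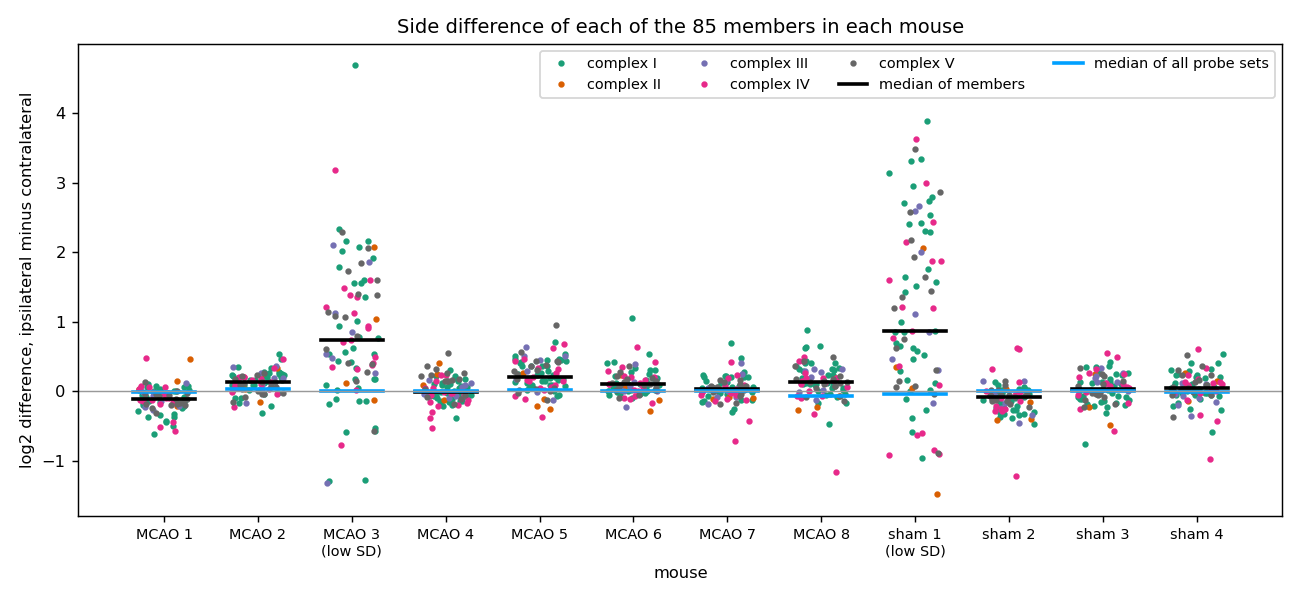
Log2 difference between the ipsilateral and contralateral hemisphere (vertical axis) of each of the 85 members (points, coloured by complex) in each mouse (horizontal axis). Black bars are the median of the members and blue bars the median of all probe sets. The members of MCAO mouse 5 lie mostly above 0 and those of MCAO mouse 1 and sham mouse 2 mostly below, while the 2 low-SD mice have medians of 0.73 and 0.87.

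Between mice, ipsilateral hemispheres of MCAO and sham animals were compared, as were the contralateral ones. These comparisons share arrays with the side comparisons above and are not independent of them. For the ipsilateral side 0 of 85 members were called on 24 arrays (0.0045% of all probe sets) and 0 of 85 on 20 arrays (0.149%). At an unadjusted p under 0.05, 0 members passed on 24 arrays (1.01%) and 2 on 20 arrays (7.48%), namely Ndufa4l2 and Ndufa7. Ndufa7, a complex I subunit named here after its values were seen, was at 0.36 ± 0.16 (SE, adjusted p = 0.643) and was above background on 14 of 20 arrays. The median difference of the members was 0.29 on 24 arrays and 0.097 on 20 arrays, with 76 and 72 of 85 positive. Of all probe sets 52.6% and 51.9% were positive. Of those at or above the median signal, where most members lie, 79.2% were positive on 24 arrays (median 0.24) and 59.0% on 20 arrays (median 0.035). On 24 arrays it was -0.12 without sham mouse 1. On 20 arrays it rested on single sham mice and was -0.042 without sham mouse 2, whose member signals were the lowest, and 0.20 without sham mouse 4.

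For the contralateral side 0 of 85 members were called on 24 arrays (0% of all probe sets) and 0 of 85 on 20 arrays (0%). At an unadjusted p under 0.05, 0 members passed on either set, where 0.365% and 4.59% of all probe sets passed. The median difference was 0.42 on 24 arrays, with 76 of 85 positive, and 0.022 on 20 arrays, with 55 of 85 positive. Among probe sets at or above the median signal 78.6% were positive on 24 arrays (median 0.24) and 54.7% on 20 arrays (median 0.015). On 24 arrays it was -0.30 without sham mouse 1. On 20 arrays it was -0.063 without sham mouse 2 and 0.11 without sham mouse 4. On 20 arrays 81 of 85 intervals lay within ± 0.5, as did 12960 of all 22206 and 8516 of the 11103 at or above the median signal. Atp5j, which codes for coupling factor 6 of ATP synthase, had the highest statistic. Its contralateral signal was 8.51 to 9.03 in MCAO mice and 8.52, 8.43 and 8.64 in sham mice 2, 3 and 4, so the groups overlapped. The difference was 0.17 ± 0.14 (SE, adjusted p = 1).

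The isoform families separated into members above and members below background. In 6 of the 8 families at least 1 isoform was above background on all 20 arrays while another was above it on 0 of 20. Cox4i2, Cox6b2, Cox7a1, Cox7b2, Cox8b and Cox8c of complex IV, and Ndufa4l2, were not above background on any array. In mice and other mammals Cox7a1 and Cox8b are known from heart and skeletal muscle, Cox6b2 and Cox8c from testis, and Cox4i2 from lung. The partners Ndufa4, Cox4i1, Cox6a1, Cox6b1, Cox7a2, Cox7a2l, Cox7b and Cox8a were above background on all 20 arrays. So were Atp5g1, Atp5g2 and Atp5g3, 3 genes that code for the same mature c subunit of ATP synthase. Ndufa4, first described in complex I and later assigned to complex IV, was at 0.099 ± 0.092 (SE, adjusted p = 0.912) between the sides of MCAO brains. The 3 Atp5g genes were at -0.011 ± 0.073, 0.020 ± 0.076 and 0.095 ± 0.082 (SE), with adjusted p-values of 0.994, 0.985 and 0.9.

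Cox6a2 is the heart and skeletal muscle form of Cox6a, and it was above background on all 20 arrays. Its log2 signal was 7.02 to 7.58 (median 7.23) in the occluded and 6.95 to 7.41 (median 7.27) in the opposite hemisphere of MCAO mice. Sham mice 2, 3 and 4 gave 7.71, 7.70 and 6.91 ipsilaterally and 7.58, 7.38 and 6.80 contralaterally. The side difference in MCAO mice was 0.082 ± 0.090 (SE, adjusted p = 0.926). The other muscle forms, Cox7a1 and Cox8b, were above background on 0 of 20 arrays, and 0 of 10 skeletal muscle markers were so on all 20. The muscle marker Ckm, named after its values were seen, was above background on 17 of the 20.

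Ndufa4l2, a paralogue of Ndufa4 known as a target of hypoxia-inducible factor 1, had the highest test statistic of the members on 20 arrays in the interaction and in the ipsilateral comparison of MCAO with sham mice. It was 3.86 to 4.57 (median 4.13) in the occluded and 3.17 to 4.48 (median 3.88) in the opposite hemisphere of MCAO mice. In sham mice 2, 3 and 4 it was 3.75, 3.43 and 3.75 ipsilaterally and 4.08, 4.19 and 4.34 contralaterally. On these 20 arrays the MCAO ipsilateral values lay above the sham ipsilateral ones, while on 24 arrays the groups overlapped, with MCAO mouse 3 at 2.87. The adjusted p was 0.411 on the ipsilateral side, 1 on the contralateral side and 0.723 for the interaction on 20 arrays, and 0.968, 0.997 and 0.891 on 24 arrays. Every value lay below the background of its array, so no size of difference is given and the order of the groups is that of signals at background.

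**Figure D4:**
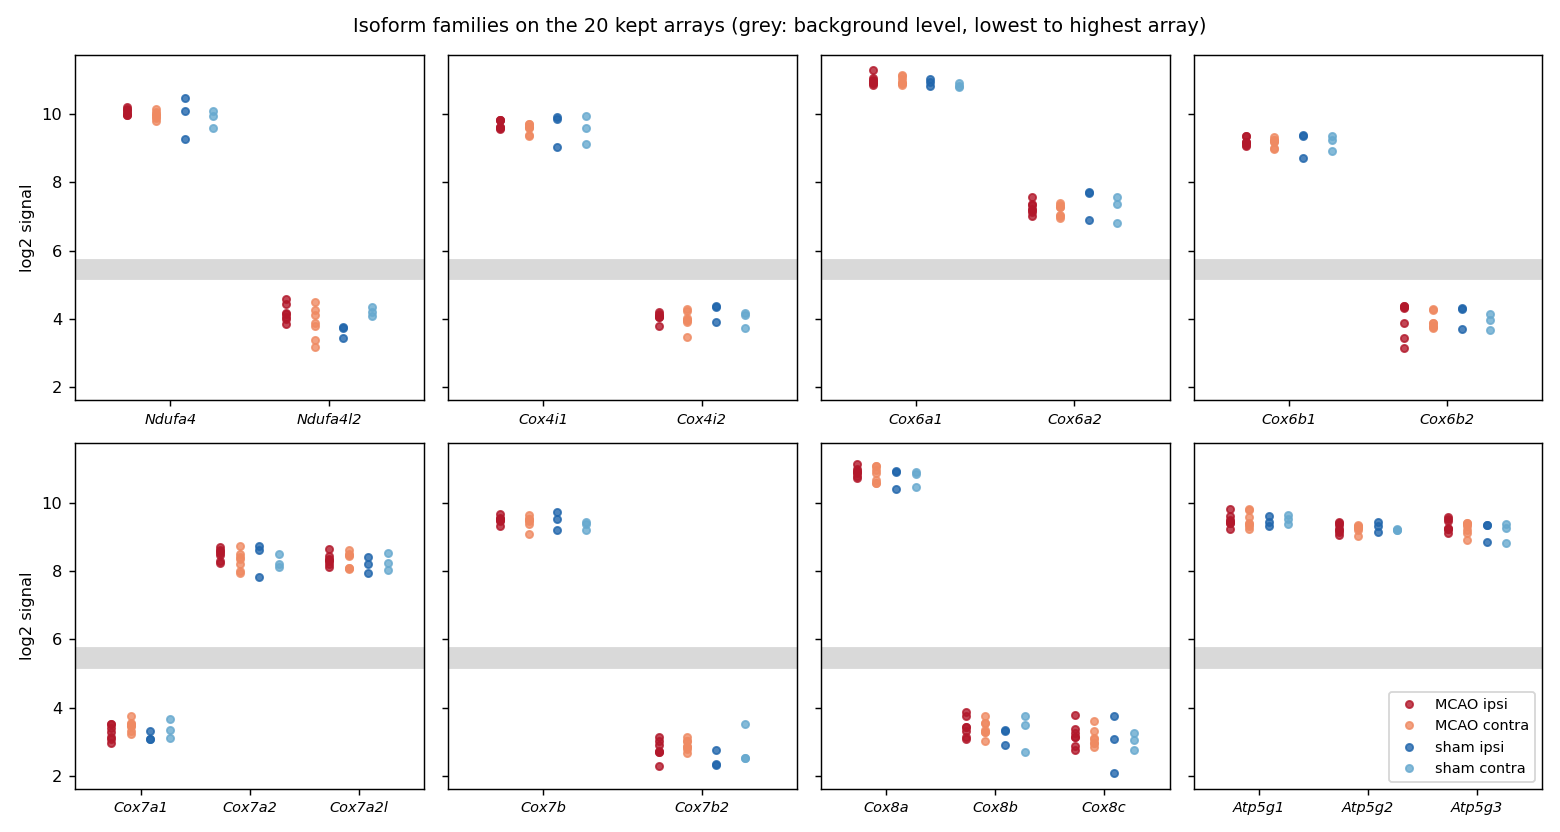
Log2 signal (vertical axis) of the isoforms of 8 families on the 20 arrays kept, by group (colours). The grey band spans the background of the arrays, 5.17 to 5.74, and the panels place 7 isoforms below it on every array and the other 12 above it.

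Over the 20 arrays the SD of a member's log2 signal had a median of 0.19 and ran from 0.079 to 0.42. Over all probe sets the median was 0.25, and over probe sets at or above the median signal it was 0.20. The members with the greatest SD were Atp5e (0.42), Cox8c (0.38) and Ndufa4l2 (0.37), of which the last 2 were not above background on any array. After Ndufv1, the smallest SDs were those of Ndufa10 and Ndufb4b of complex I, both at 0.10. Ndufb4b is a paralogue of Ndufb4, and probe sets of close paralogues can share signal.

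On the low-SD arrays the members lost most of their signal. Their mean over the 85 was 6.62 and 5.79 on the ipsilateral and contralateral array of MCAO mouse 3 and 6.58 and 5.43 on those of sham mouse 1. Members above background numbered 33, 13, 29 and 8 on these arrays. Compared with the 20 arrays, 75 of 85 members were lower on the low-SD arrays, with a median difference of -2.24. The loss was unequal: the median was -2.30 in complex I, -2.99 in complex II, -1.67 in complex III, -1.20 in complex IV and -2.49 in complex V. The complex IV median includes 6 isoforms above background on 0 of the 20 arrays, which were higher by 0.47 to 2.74 on the low-SD arrays. It therefore does not give the loss of the detected complex IV members. Ndufv1 went from 9.36 to 4.59 and Atp5j from 8.70 to 3.72. Cox7b went from 9.46 to 8.99, and Atp5l was at 8.17 and 8.30. The fall was not particular to the members. The mean signal of 10 neuronal markers was 5.05 to 6.73 on the low-SD arrays, while its group medians on the 20 arrays were 9.60 to 9.70. For 22 genes of the tricarboxylic acid cycle and pyruvate entry it was 5.04 to 5.73 against 7.82 to 7.95. Markers of skeletal muscle and choroid plexus, mostly below background, were higher on the low-SD arrays. The isoforms at background on the 20 arrays mostly had higher values on the low-SD arrays, which remained below the higher background there. In both mice the contralateral array was the lower, which is the direction of their side differences.

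**Figure D5:**
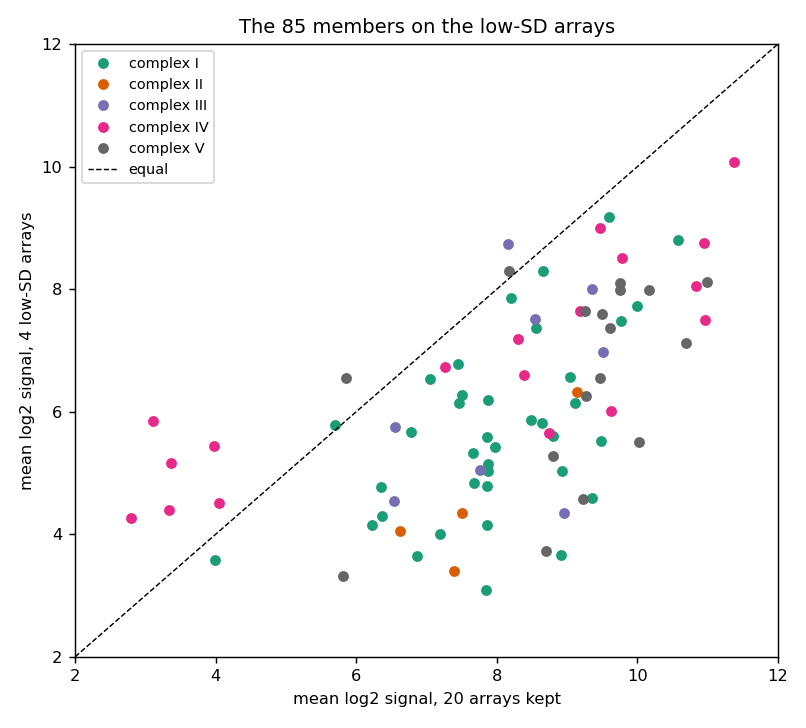
Mean log2 signal of each of the 85 members on the 4 low-SD arrays (vertical axis) against the mean on the 20 arrays kept (horizontal axis), coloured by complex. The dashed line marks equal signal. Of the 85 points 75 lie below it, and those above it include 6 complex IV isoforms of low signal.

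Other genes were taken from lists related to the pathway or to mitochondria, and from a list of cytosolic ribosomal proteins. On 20 arrays 0 of them were called in the side comparison of MCAO mice. Of 22 measured genes of the tricarboxylic acid cycle and pyruvate entry, 18 were positive with a median of 0.074. Of 30 assembly factors of complexes II to V, 21 were positive (median 0.044), and of 14 assembly factors of complex I, 7 were (median -0.0022). The 76 mitochondrial ribosomal proteins had a median of 0.029 and the 69 cytosolic ones 0.039. On 24 arrays these 5 medians, in the same order, were 0.13, 0.077, 0.021, 0.054 and 0.11, and again 0 genes were called. A list of 12 genes outside the rule, for electron carriers and for the synthesis of ubiquinone, had a median of 0.011 on 20 and -0.014 on 24 arrays. Of these, Cyc1, the cytochrome c1 subunit of complex III, had the smallest p, at 0.20 ± 0.096 (SE, adjusted p = 0.728). Of 15 transcription regulators of respiratory genes it was Tfam, needed to transcribe and package mitochondrial DNA (adjusted p = 0.795 in limma). Tfam was above background on 0 of 20 arrays, so no size of its difference is given. The median of that list was -0.020 on 20 and 0.058 on 24 arrays. Of 16 inner membrane carriers and uncoupling proteins it was Slc25a27, at -0.20 ± 0.082 (SE, adjusted p = 0.639). The median over all probe sets was -0.0048.

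Nuclear genes of this pathway are known to be controlled by NRF1, by ETS factors of the GABP (NRF2) type and, in part, by YY1. RefSeq promoters of GRCm38.p6, from 250 bases before to 50 after the start, were matched to 70 of the 85 members, and letters were searched on both strands. The NRF1 core GCGCATGCG stood in the promoters of 8 of 70 members, or 10.7% of their promoters, against 1.75% of all promoters. The ETS core CCGGAAG was present in 17 of 70 members (22.7% of promoters, against 8.86%) and the YY1 core AAGATGGCG in 7 (9.33%, against 1.4%). The GC box GGGCGG was found in 40% of member promoters and 35.7% of all, and the TATA box TATAAA in 12% and 13.6%. None of these motifs contains another. Of 70 members, 43 had none of the NRF1, ETS and YY1 cores, as had 87.3% of all genes. A match is only a run of letters, and promoters were not matched for base composition. In 4 members the NRF1 core stood upstream of the start as the full palindrome, and their windows of 60 bases are shown, on the strand of the gene, with that palindrome in capitals:
Atp5g2, chr15:102671055-102671114, minus strand: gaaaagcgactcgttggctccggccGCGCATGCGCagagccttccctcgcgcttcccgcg
Atp5k, chr5:108434415-108434474, minus strand: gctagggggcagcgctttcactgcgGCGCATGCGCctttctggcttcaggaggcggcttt
Cox6a1, chr5:115349086-115349145, minus strand: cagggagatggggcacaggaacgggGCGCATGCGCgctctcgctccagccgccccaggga
Ndufa11, chr17:56717677-56717736, plus strand: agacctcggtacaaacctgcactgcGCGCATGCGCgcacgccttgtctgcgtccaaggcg
Counted with the start at 0, the palindrome began at -42, -50, -162 and -60 in Atp5g2, Atp5k, Cox6a1 and Ndufa11. The side differences of these genes in MCAO mice on 20 arrays were 0.020, 0.088, 0.017 and -0.002, and 0 of the 4 were called.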

How the data were processed

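The unit is the log2 probe-set signal, deposited by the authors for 24 arrays. Per the submitters' processing notes it was made with Affymetrix Expression Console. The version, background correction and normalization of that step were not given in the sources used here, and that the scale is log2 was judged from the spread of the values. Of 29129 probe sets, 6923 array controls were left out of tests and 22206 remained, with no filter on signal. Genes were named from the platform annotation, and all 85 members were found in RefSeq (GRCm38.p6) by Entrez identifier. Where a gene had several probe sets, the one with the highest mean was kept, a choice that arose for no member.

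Tests used limma 3.58.1 in R 4.3.3 (lmFit and eBayes), with Benjamini-Hochberg adjustment over all probe sets. Side comparisons kept the mouse as a block, because the labels give both hemispheres of each animal. Over the 10 mice of the 20 arrays, deviations of the 2 hemispheres correlated at 0.11 to 0.31 (median 0.15). For 180 pairs from different mice the correlation was -0.59 to 0.17 (median -0.042), so the ranges overlapped. Comparisons between mice used 1 side and no block. An array with an SD under 2 was called low-SD. Errors are SE unless SD is written, and the number of arrays limits precision.

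Members and lists were chosen with earlier results of these data known. Named by rule are core subunits, isoform families, and per comparison the extremes of test statistic, with those of spread. Fits were tested on simulated data with independent noise and an added change far larger than the median differences of the members. That test does not bear on differences this small or on members that vary together. Alternatives were the treatment of the block, array weights, centring, quantile normalization, dim probe sets and each mouse left out. Figures used matplotlib 3.10.9 in Python 3.11.15.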

Additional observations from a re-analysis of the deposited data

Results flagged for a closer look

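Values far from the rest of their group came mostly from the low-SD mice. Among the 8 MCAO mice on 24 arrays, MCAO mouse 3 stood apart in the mean side difference of complex I (0.735, the others -0.136 to 0.239), complex II (0.775, the others -0.097 to 0.151), complex IV (0.877, the others -0.112 to 0.19) and complex V (1.036, the others -0.114 to 0.262). Among the 4 sham mice, sham mouse 1 stood apart in complex I (1.317, the others -0.132 to 0.057), complex IV (0.951, the others -0.074 to 0.083) and complex V (1.157, the others -0.066 to 0.104).

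On the 20 arrays, 3 single genes had 1 value far from the others. Cox4i2 was at 3.792 in the ipsilateral hemisphere of MCAO mouse 2, against 4.052 to 4.194 in the other 6 mice, all below background. Atp5g2 was at 9.018 in the contralateral hemisphere of MCAO mouse 5, against 9.207 to 9.339. The side difference of Atp5e was 0.945 in MCAO mouse 5, against 0.109 to 0.431. Chance gives about 1 such value in 20 groups, and 129 groups were examined.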

How the results depend on the processing

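No member was called in any of 103 fits on 24 arrays or 93 fits on 20 arrays, which covered the 5 comparisons with each mouse left out and each alternative that applied; those of the block were run for the side comparisons and the interaction, and a fit of 1 surgery group for the side comparisons. The smallest adjusted p was 0.328 and 0.185. With no replicate block, that is with the pairing of hemispheres ignored, 0 members were called. The median side difference of MCAO mice, 0.168 on 24 and 0.076 on 20 arrays, cannot change with the block. Each mouse gave 1 array per side, so the estimate is the same with or without the block. Leaving out 1 mouse at a time moved the median interaction on 24 arrays from -0.08 to between -0.242 and 0.185, and the median ipsilateral difference between MCAO and sham mice on 20 arrays from 0.097 to between -0.042 and 0.197. Array weights brought the latter to 0.03. On 24 arrays they turned the median interaction from -0.08 to 0.044 and lowered the median side difference from 0.168 to 0.077 in MCAO and from 0.254 to 0.042 in sham mice, and the MCAO-sham medians from 0.293 to 0.049 ipsilaterally and from 0.422 to 0.035 contralaterally. Quantile normalization brought the ipsilateral one to 0.131. On 20 arrays median centring turned the sham side median from -0.008 to 0.006 and the contralateral one from 0.022 to -0.005, and quantile normalization brought the ipsilateral one from 0.097 to 0.061. The cause was not tested. The log2 scale rests on inference, so folds do too. With 3 sham mice left on 20 arrays, comparisons with sham rest on few animals, and 7 isoforms had no signal above background.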
